A study of Homo sapiens with 4 samples.

Results

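The G1 cyclins, their kinases and RB were examined as 10 genes: CCND1, CCND2 and CCND3 (cyclins D1 to D3), CCNE1 and CCNE2 (cyclins E1 and E2), CDK4, CDK6 and CDK2 (their catalytic partners), CDKN1B (the inhibitor p27) and RB1. Their members on the array were the probe sets annotated to exactly 1 of these symbols, 29 of 49293 probe sets that are not controls. Expression was measured on Affymetrix PrimeView arrays in a derivative of Kelly, an established neuroblastoma cell line with MYCN amplified, that is resistant to the ALK inhibitor TAE684 and grown in 1 µM of it in both groups. In 1 group the cells carried a short hairpin RNA against BORIS, the product of CTCFL (shBORIS, 2 arrays), and in the control group a hairpin against luciferase (shLUC, 2 arrays). Both groups were infected for 24 h and selected with puromycin for 48 h. The labels name 1 hairpin per target and do not say whether the resistant derivative is a clone. The comparison asks how these transcripts differ when BORIS is reduced in resistant cells, and the labels describe the arrays of a group as biological duplicates.

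In G1, D cyclins bind CDK4 or CDK6 and begin the phosphorylation of RB, the pocket protein that holds E2F transcription factors inactive. Cyclin E with CDK2 completes that phosphorylation, E2F factors are released, and genes of DNA replication are transcribed. The inhibitor p27 blocks cyclin E with CDK2 and also binds complexes of D cyclins, which it helps to assemble. Cyclin D1 and CDK4 are abundant in many neuroblastomas, and CDK4 and CDK6 are drug targets in this tumour.

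RefSeq promoter windows (GRCh38.p14, 250 bases before to 50 after a start) are reported for 6 of the 10 genes, 9 windows in all. The windows reported include none of CCND1, CCND2, CDK2 or CCNE2. Their absence from this set is no result about the promoters of these genes. The upstream parts of 3 windows are shown to set CDK6 and CDKN1B, 2 genes whose transcripts rose clearly, beside CDK4, which moved little beyond the median gene. They do not span the range: CCNE1 rose more, and CCND3 and RB1 lay lower. Each is written 5′ to 3′ on the gene's strand and ends at the base before the start, which for CDK6 lies inside the gene. Capitals mark the core letters of the CTCF motif, AGAGGGC or else AGATGGC or else AGGGGGC or else AGGTGGC on either strand, which BORIS shares as a paralog of CTCF.
CDK6, chr7:92833960-92834209, minus strand: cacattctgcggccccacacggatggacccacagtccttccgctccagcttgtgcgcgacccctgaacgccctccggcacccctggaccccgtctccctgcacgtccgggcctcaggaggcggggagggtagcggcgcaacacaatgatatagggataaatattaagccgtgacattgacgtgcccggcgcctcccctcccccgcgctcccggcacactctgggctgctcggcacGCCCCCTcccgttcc
CDKN1B, chr12:12717118-12717367, plus strand: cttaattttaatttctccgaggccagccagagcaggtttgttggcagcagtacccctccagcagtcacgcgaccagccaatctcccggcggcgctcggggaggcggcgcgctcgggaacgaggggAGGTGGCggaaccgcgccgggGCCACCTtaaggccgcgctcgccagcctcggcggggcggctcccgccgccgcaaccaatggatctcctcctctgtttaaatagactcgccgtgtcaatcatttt
CDK4, chr12:57752311-57752560, minus strand: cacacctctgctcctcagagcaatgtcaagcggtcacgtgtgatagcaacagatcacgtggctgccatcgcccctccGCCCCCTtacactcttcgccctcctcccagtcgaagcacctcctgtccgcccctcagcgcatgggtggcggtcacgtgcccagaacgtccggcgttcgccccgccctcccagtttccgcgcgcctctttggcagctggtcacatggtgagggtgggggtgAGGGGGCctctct

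The CDKN1B window held these letters at 2 places, starting 125 and 104 bases before the start. In the CDK4 window they began 173 and 13 bases before the start and once more at base 27 after it. The CDK6 window shown, at a start inside the gene, held them once, 15 bases before that start. The second CDK6 window, at the outermost start of the gene (base 92836573), did not hold them. The CCNE1 window held them once, at base 33 after the start. Of 3 CCND3 windows, 1 held them at position -58 and another at -182 from the start. All 3 lie inside that gene, whose outermost start is base 42050035. The RB1 window (chr13:48476200-48476499) did not hold them. It lies far inside the gene, which begins at base 48303751, so the promoter at the 5′ end of RB1 was not searched. In all 6 of the 9 windows had a match, against 30.5% of 35116 promoter windows of 300 bases, and the matches fell in genes that rose and in genes that did not. The E2F letters (TTTCGCG or else TTTGGCG or else TTTCCCG or else TTTGCCG) were in none of the 9 windows of these genes and in 8.67% of all windows. These matches describe the letters in a short window, and no binding was measured.

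Values are linear intensities per probe set. The hairpin's target was lower on both shBORIS arrays in 5 of its 7 probe sets: the brightest for CTCFL read 701 and 737 with shBORIS and 3563 and 3376 with shLUC, a log2 difference of -2.25 as deposited (SE 0.11, limma adjusted p = 2.41e-92). Of the other two, one was not called as deposited (175 against 162) and one, below the filter, was called higher (55.3 against 38.6). Of 10946 genes tested, the median gene was 0.48 higher with shBORIS on the log2 scale as deposited. The 33 spike-in RNAs above the filter had a median difference of -0.01, with a range of -0.19 to 0.36. The 23 background control probe sets were not level, at means of 155 and 173 with shBORIS and 120 and 122 with shLUC. Each change is therefore given on 2 scales: as deposited, and centred, which takes each array's own median off, so that a centred difference of 0 is that of the median gene. Which of these is nearer to the change per cell cannot be told from the labels, and in such bulk RNA fewer cells of a type and less RNA per cell cannot be told apart. Log2 intensities of the genes tested correlated at 0.9967 and 0.9963 within the groups and at 0.9594 to 0.9606 across them. Of 9 neuroblastoma markers on the array, all were above the filter. As deposited 5 of them were higher and 0 lower, and after centring 3 were higher and 6 lower. CHGA read 6255 and 2133 (means of shBORIS and shLUC) and was 1.07 higher after centring, ALK was 0.96 and DBH 0.39 higher, and PHOX2A differed by -0.65. Of 14 fibroblast, endothelial and immune markers on the array, 4 were above the filter: COL1A1, PDGFRB, VWF and CD68. COL1A1 was lower with shBORIS, at a mean of 483 against 754, and the summed intensity of the 6 fibroblast markers was 872 and 944 against 1052 and 1104. Without COL1A1 the other 5 summed to 421 and 429 against 322 and 324, the opposite direction, and PDGFRB was higher as deposited (276.5 against 201.5). The 4 endothelial markers summed to 171 and 179 against 165 and 146.5, and the 4 immune markers to 162 and 149 against 163 and 145. PTPRC, CDH5 and DCN, from the immune, endothelial and fibroblast lists, were picked after their values were seen and read under 30 on average in each group. Other members of these lists read higher, among them VWF (79.5 with shBORIS against 66.9 with shLUC) and CD68 (76.95 against 81.45). The part of such differences in the results below was not tested.

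Among the 10 genes, cyclin D1, cyclin E1, CDK6 and p27 rose well beyond the general shift, CDK2 and CDK4 stayed close to it, and cyclin D3, cyclin E2 and RB were not called beyond it. The 9 genes whose brightest probe set passed the filter were all higher as deposited, where 77.2% of all genes tested were higher and 4.64% lower, so that count is near the background. CCND2 did not pass the filter. After centring 5 of the 9 rose (CCND1, CCNE1, CDKN1B, CDK6 and CDK2), 0 fell and 4 were not called, while 30.3% of all genes rose and 28.8% fell. Quantile normalization split all genes much as centring did, with 2940 higher and 3106 lower, where the deposited scale gave 8455 and 508. The median difference of the 9 was 0.68 as deposited and 0.20 after centring, against 0.48 and 0.00 over all genes tested. The members were listed with earlier results of these data known, so these counts describe them and are not a test of the group.

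**Figure D1:**
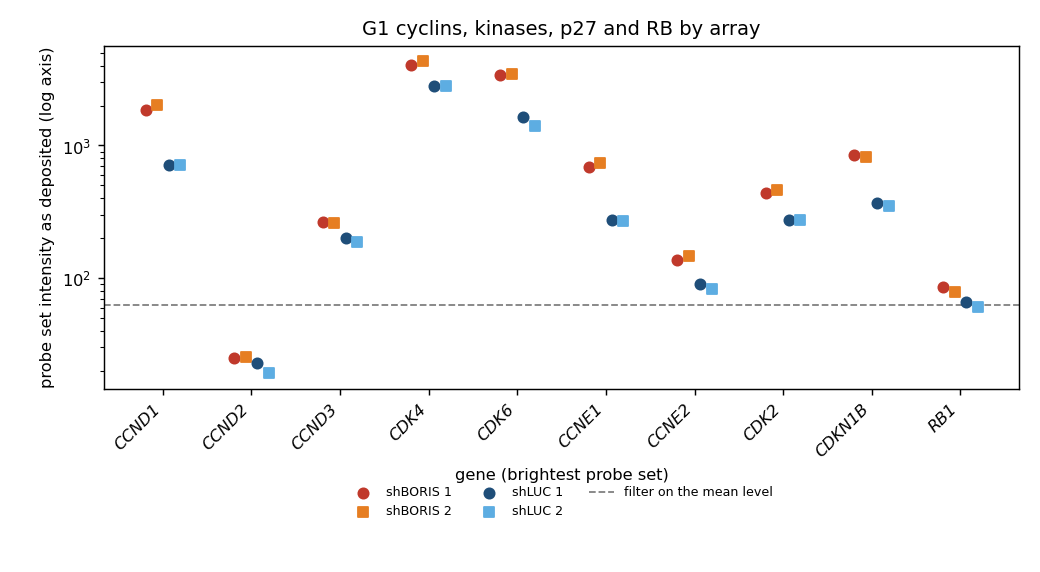
Intensity as deposited (log axis) of the brightest probe set of each gene on the 4 arrays; the dashed line is the filter at a mean of 62.2. For CCND1, CDK6, CCNE1 and CDKN1B the shBORIS arrays sit more than 2-fold above the shLUC arrays, while CCND2 lies below the filter on every array. Heights of different genes depend on their probes and are not comparable.

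Counted over probe sets, 23 of 29 were higher as deposited and 1 lower, against 51.8% and 3.22% of all probe sets. After centring, 18 of 29 were higher and 6 lower, against 16.4% and 46.2%. The groups did not overlap in 25 probe sets with shBORIS above and 2 with it below as deposited, and in 20 and 8 after centring. That share over all probe sets was not counted, so lack of overlap is no result about a gene. The mean over all 4 arrays reached the filter intensity of 62.2 in 24 of the 29. The dimmer CCNE1, the dimmer CCNE2 and the dimmest CDK6 probe set reached it only through the shBORIS arrays. The 5 below it were the 3 of CCND2, 1 of 2 for CCND3 and 1 of 3 for RB1. Where an intensity hardly moved, taking off the higher median of the shBORIS arrays gives a negative centred value by construction.

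**Figure D2:**
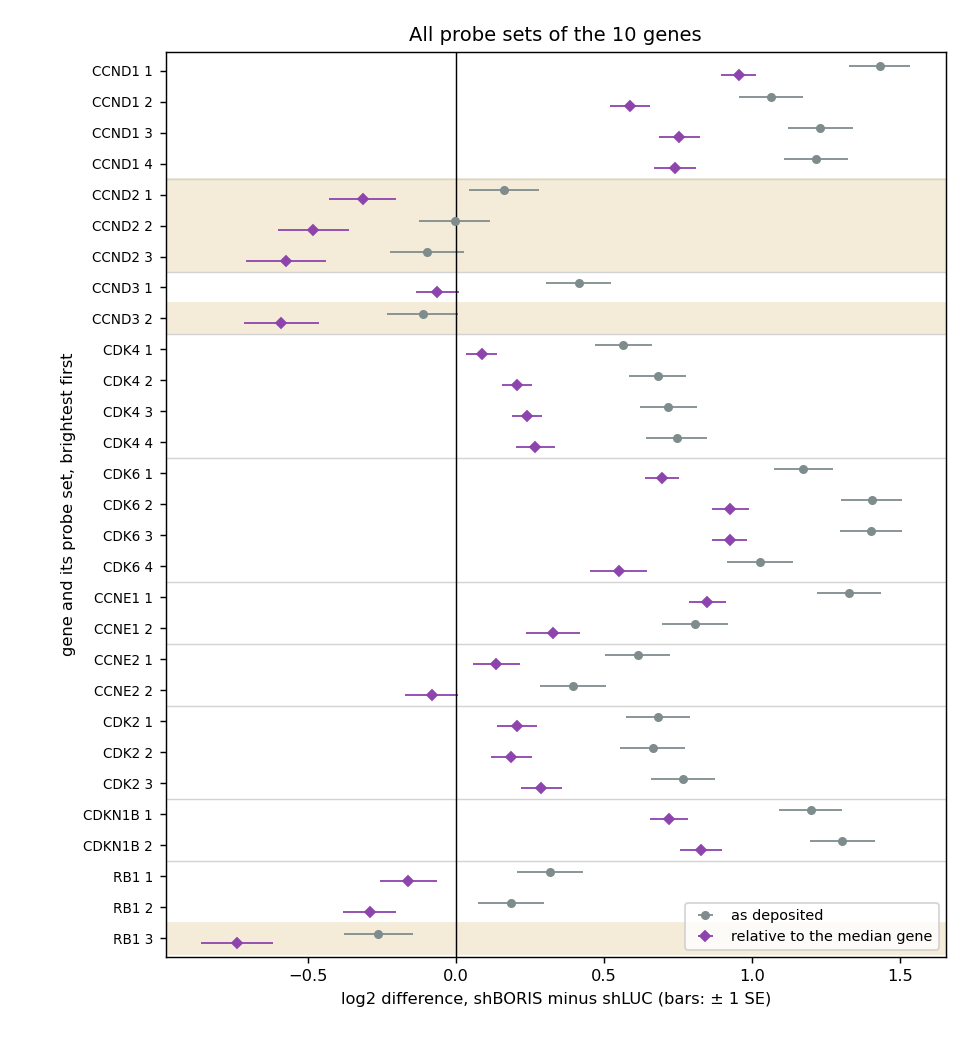
Log2 difference, shBORIS minus shLUC, of all 29 probe sets with 1 SE to each side, as deposited (circles) and after centring (diamonds); shaded rows are probe sets with a mean under 62.2. All 4 probe sets of CCND1 and of CDK6 lie at 0.55 or above after centring, and all 3 of RB1 lie below 0.

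Cyclin D1 is the D cyclin that growth factor signalling induces. The brightest CCND1 probe set read 1860 and 2021 with shBORIS and 706 and 712 with shLUC. The groups were far apart and the arrays within each close together. The difference was 2.70-fold as deposited (log2 1.43, SE 0.11, limma adjusted p = 9.06e-36) and 1.94-fold after centring (log2 0.95, SE 0.06, limma adjusted p = 1.1e-06). This placed CCND1 56th from the top of 10946 genes in centred difference. The other 3 probe sets read 592 and 599 against 299 and 255, 440 and 438 against 181 and 175, and 429 and 439 against 177 and 178.5. All 4 rose on both scales, by 0.59 to 0.95 after centring. Over the 4 arrays the genes whose centred values lay nearest to those of CCND1 were EPHA7, TP53BP1 and SREK1, at Euclidean distances of 0.03, 0.04 and 0.05, with centred differences of 0.97, 0.93 and 0.95. With 2 groups such likeness is little more than an equal difference.

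Cyclin D2 was not measurable. Its 3 CCND2 probe sets read 24.97 and 25.6 against 22.85 and 19.1, 21.8 and 18.9 against 21.5 and 19.3, and 12.3 and 9.67 against 12.45 and 13.2. These intensities are like the medians of 24.4 to 25.8 of the spike-in probe sets. As deposited the differences were -0.10 to 0.16 and none was called (limma adjusted p = 0.253 to 0.977). After centring all 3 were called lower, at -0.58 to -0.32, by the same construction, and none was called after quantile normalization.

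Cyclin D3, the D cyclin best known in lymphoid cells, followed the median gene. The brighter CCND3 probe set read 267 and 260 with shBORIS and 201 and 187 with shLUC. The groups did not overlap as deposited, where it was 1.33-fold higher (log2 0.41, SE 0.11, limma adjusted p = 2.2e-04), but they overlapped once centred (log2 -0.06, SE 0.07, limma adjusted p = 0.441). The dimmer probe set, at 14.2 and 21.5 against 19.5 and 21.4, was near background. Of the D cyclins above background, CCND1 thus changed more than CCND3: its log2 ratio to CCND3 within an array was 1.02 larger with shBORIS than with shLUC, where arrays of a group differed by at most 0.15.

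The kinase CDK6 rose with all 4 of its probe sets. The brightest read 3419 and 3467 with shBORIS and 1648 and 1398 with shLUC, 2.255-fold as deposited (log2 1.17, SE 0.10, limma adjusted p = 2.19e-28) and 1.62-fold after centring (log2 0.70, SE 0.06, limma adjusted p = 6.01e-06). The next read 1924 and 2117 against 830 and 683, and the third 1228 and 1258 against 489 and 434, both about 0.92 to 0.93 higher after centring. The dimmest read 106 and 123 against 54.7 and 42.0 and rose by 0.55. In each of the 4, shLUC replicate 2 was the lower control array.

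CDK4, the other partner of the D cyclins, moved less. Its brightest probe set read 4036 and 4306 with shBORIS and 2822 and 2809 with shLUC, 1.48-fold as deposited (log2 0.56, SE 0.10, limma adjusted p = 1.46e-08). After centring that was 0.09 (SE 0.05, limma adjusted p = 0.16), which was not called, though it was without shLUC replicate 2 (0.14, adjusted p = 0.0257). The other 3 probe sets of CDK4 rose by 0.20, 0.24 and 0.27 in the fit to all probe sets (limma adjusted p = 0.00439, 0.00151 and 0.00413). The mean of all 4 gave 0.24 (limma adjusted p = 4.92e-04), so the call for CDK4 depends on the probe set. It also depends on the setting: the brightest was called with a pseudocount of 64 (0.15, adjusted p = 0.0161), after quantile normalization (0.15, adjusted p = 0.0116) and when centred on all probe sets (0.23, adjusted p = 0.00192).

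CDK2, the partner of cyclin E, also rose slightly. Its 3 probe sets had similar values: the brightest read 437 and 465 with shBORIS against 275 and 275 with shLUC, and the others 409 and 457 against 265 and 269, and 405 and 467 against 252.5 and 246.5. As deposited the brightest was 1.605-fold higher (log2 0.68, SE 0.11, limma adjusted p = 3.48e-09). After centring it was 0.20 higher (SE 0.06, limma adjusted p = 0.0168), and the others 0.19 and 0.29. The centred call was lost when shBORIS replicate 1 was left out (0.20, limma adjusted p = 0.0519), likewise without its duplicate (0.21, adjusted p = 0.0571), though the size held. It was lost too without shLUC replicate 1 (0.15, adjusted p = 0.105), after quantile normalization (0.13, adjusted p = 0.1) and with the filter at the 60th percentile (0.13, adjusted p = 0.084).

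Cyclin E1, which activates CDK2 at the end of G1, was second to CCND1 among these genes by brightest probe set, though by the mean of its probe sets (0.63) it stood behind CCND1, CDK6 and CDKN1B (0.80, 0.81 and 0.81). Its brighter CCNE1 probe set read 688 and 732 with shBORIS and 276 and 271 with shLUC. It was 2.51-fold higher as deposited (log2 1.33, SE 0.11, limma adjusted p = 9.28e-30) and 1.80-fold after centring (log2 0.85, SE 0.06, limma adjusted p = 2.53e-06), 113th from the top of all genes tested. The dimmer probe set read 87.6 and 94.6 against 45.7 and 44.8 and rose by 0.33 (limma adjusted p = 0.00799), a call lost with a pseudocount of 64 (0.10, adjusted p = 0.166). Its fold is understated more, because 16 is added to every intensity before the logarithm.

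Cyclin E2 rose as deposited, and its call after centring depended on the setting. The brighter CCNE2 probe set read 136 and 146 with shBORIS and 90.7 and 83.2 with shLUC, 1.53-fold (log2 0.61, SE 0.11, limma adjusted p = 5.45e-08), which left 0.14 after centring (SE 0.07, limma adjusted p = 0.138). The dimmer read 80.5 and 81.4 against 60.3 and 55.4, with -0.08 after centring (SE 0.09). With a pseudocount of 64 the dimmer was called lower after centring (-0.15, limma adjusted p = 0.0351). In the gene fit the brighter was called higher with no filter (0.25, adjusted p = 0.0153), when centred on all probe sets (0.28, adjusted p = 0.00596) and after quantile normalization (0.19, adjusted p = 0.0482). Within an array the log2 ratio of CCNE1 to CCNE2 was 2.21 and 2.20 with shBORIS and 1.45 and 1.53 with shLUC, so the E cyclins did not move by the same amount.

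The inhibitor p27 rose together with the cyclins it restrains. The brighter CDKN1B probe set read 854 and 825 with shBORIS and 368 and 347 with shLUC, 2.29-fold as deposited (log2 1.20, SE 0.11, limma adjusted p = 3.14e-24) and 1.65-fold after centring (log2 0.72, SE 0.06, limma adjusted p = 9.05e-06). The dimmer read 422 and 412 against 168 and 152 and rose by 0.83 after centring. Neither overlapped between groups. CDKN1B protein is controlled largely by degradation, which an array of RNA does not measure.

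RB1 had the lowest centred difference of the 9 genes tested, by brightest probe set. Its brightest probe set read 86.1 and 78.3 with shBORIS and 65.6 and 60.2 with shLUC, close to the filter. It was 1.24-fold higher as deposited (log2 0.32, SE 0.11, limma adjusted p = 0.00783) and -0.16 after centring (SE 0.09, limma adjusted p = 0.165). In the fit to all probe sets the call as deposited was lost without shBORIS replicate 1 (0.26, adjusted p = 0.0966), and it was also lost when shLUC replicate 2 was left out (0.27, adjusted p = 0.109). In the gene fit without shBORIS replicate 1 the second probe set was the brightest, and RB1 was then lower after centring (-0.32, limma adjusted p = 0.0209). The second probe set read 73.8 and 76.3 against 65.7 and 62.4, not called as deposited (log2 0.19, limma adjusted p = 0.151) and lower after centring (-0.29, limma adjusted p = 0.013), a call lost without shBORIS replicate 2 (-0.27, adjusted p = 0.0577) and in the same way without shLUC replicate 2 (-0.27, adjusted p = 0.0696). The dimmest read 29.8 and 26.1 against 43.4 and 30.8, with no overlap, and was the only probe set of the 29 lower as deposited (-0.26, limma adjusted p = 0.043). That call was lost without shLUC replicate 1 (-0.09, adjusted p = 0.638). It was lost as well when shBORIS replicate 2 was left out (-0.20, adjusted p = 0.227), and with the replicate number as a block (adjusted p = 0.0538). RB1 probe sets were thus dim and disagreed in sign as deposited.

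**Figure D3:**
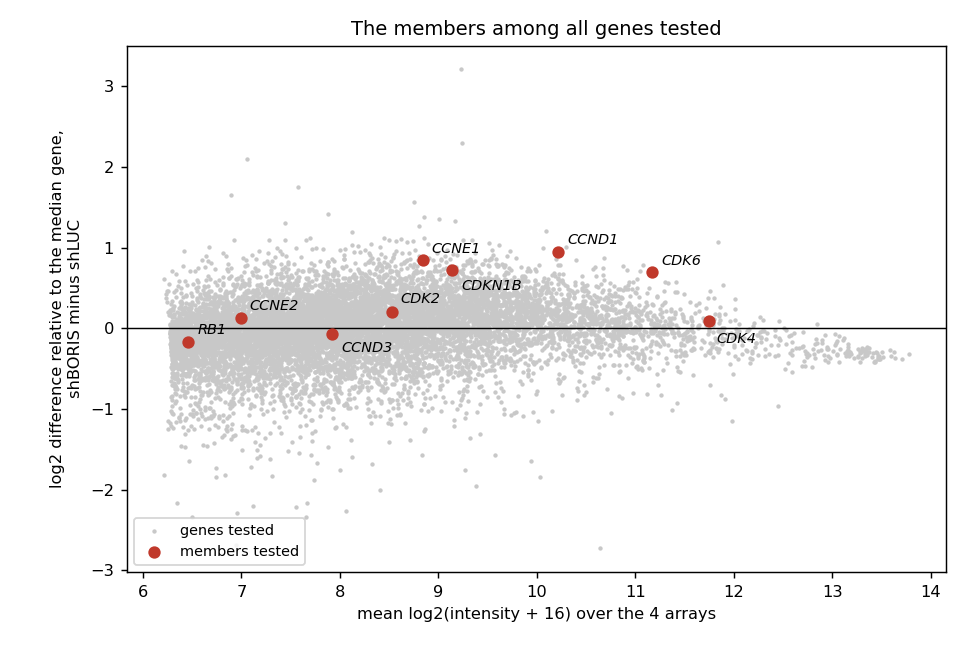
Log2 difference after centring against mean log2(intensity + 16) over the 4 arrays for the 10946 genes tested (grey) and the 9 members tested (red). CCND1, CCNE1, CDKN1B and CDK6 lie above the 90th percentile of all genes, 0.44, and the other 5 between -0.16 and 0.20.

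The centred differences of genes varied with level, with medians from -0.16 in the dimmest of 10 equal bins of genes tested to 0.14 in the ninth and -0.02 in the brightest. RB1 lay in the dimmest bin, at the median there of -0.16. CCND1, CDK4 and CDK6 lay in the brightest, whose 90th percentile was 0.39, so CCND1 and CDK6 were above it and CDK4 was not. CCNE1 and CDKN1B were above the 90th percentiles of their own bins, 0.52 and 0.53, and CDK2 at 0.20 was not.

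Multiplying an array by a constant leaves the ratio of 2 of its intensities as it was, apart from the 16 added to each, while quantile normalization can change it. In 12 ratios among these genes the shBORIS arrays did not overlap the shLUC arrays, as in 80.4% of all pairs of genes tested, so the lack of overlap is no result about these pairs. With 2 arrays against 2, an exact two-sided permutation test cannot go below p = 0.333, which all 12 reached (0.333 adjusted over the 12 as well), so the gap within groups is the guide to error. The ratio of CCND1 to CDK4 on the log2 scale was -1.11 and -1.09 with shBORIS and -1.97 and -1.96 with shLUC, a rise of 0.87 with gaps within groups of at most 0.03. That of CCNE1 to CDK2 was 0.64 on both shBORIS arrays and 0.00 and -0.02 with shLUC, a rise of 0.64. CDK6 gained 0.61 on CDK4, with a gap of up to 0.23 within a group.

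The ratios of inhibitor to cyclin moved less. CDKN1B gained 0.63 on CDK4 and 0.52 on CDK2, but its ratio to CCND1 differed by -0.23 and that to CCNE1 by -0.13, shBORIS minus shLUC. For CCNE1 that difference was smaller than the gap of 0.14 within a group. These ratios use the brightest probe set of each gene. Over all probe sets the centred differences were 0.72 to 0.83 for CDKN1B, 0.59 to 0.95 for CCND1 and 0.33 to 0.85 for CCNE1. The sign of both ratio differences thus depends on the probe set. The ratio of CCND1 to CDK6 was 0.26 higher with shBORIS, little more than the gap of 0.245 between the shLUC arrays. CCND1 and CCNE1 gained 1.12 and 1.01 on RB1. Several ratios share a gene and are not independent.

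**Figure D4:**
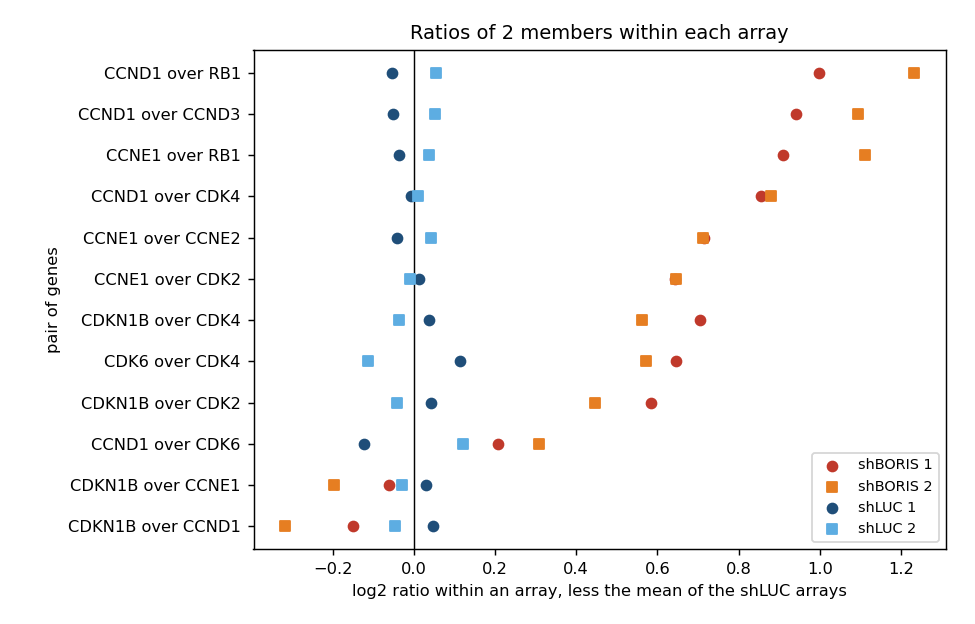
Log2 ratio of 2 genes (brightest probe sets) within each array, less the mean of the shLUC arrays, for 12 pairs. CCND1 over RB1 shifts most, by 1.12, and CDKN1B over CCNE1 least, by -0.13.

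Other genes of the pathway were taken from 7 lists with 89 genes tested. As deposited 81 were higher and 4 lower, and after centring 44 were higher and 15 lower, the median being 0.18. The lists were drawn up with earlier results known, so their counts are read only beside the 30.3% and 28.8% of all genes. The E2F target genes of S phase stood highest: 19 of 23 rose after centring, 0 fell, and the median was 0.53. That count stayed within 1.5 times of 19 under every alternative run. MCM5, a subunit of the replicative helicase, rose by 1.04, RRM2, of ribonucleotide reductase, by 1.01, MCM3 by 0.85 and CDC45 by 0.83. TYMS, DNMT1, CHEK1 and MCM7, named after their values were seen as those not called, read 0.03 to 0.06.

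Among 8 E2F factors, 3 rose and 1 fell after centring, with a median of 0.08. With no filter or with centring on all probe sets 5 rose, and with probe set means 2 fell. The activator E2F1 rose by 0.59, and E2F7 and E2F8, repressors that are themselves E2F targets, by 0.75 and 0.81. E2F5, which partners the pocket proteins in resting cells, fell by 1.02, from 435 and 402 with shLUC to 265 and 299, and was lower as deposited too. Of 10 genes of the pocket proteins and the DREAM complex, which represses cell cycle genes in quiescence, 3 rose and 3 fell, around 0.03 at the median, and 1 rose without shBORIS replicate 1. Centred on all probe sets, 5 of them rose and 1 fell. MYBL2, which replaces the repressive partners in cycling cells, rose by 0.68, LIN9 rose by 0.32, and LIN52 and TFDP2 fell by 0.51 and 0.18 after centring. As deposited LIN52 was level (means of 232 with shBORIS and 235 with shLUC) and TFDP2 was called higher (1245 against 1011). E2F8 (mean 145.9 with shBORIS against 50.4 with shLUC) and LIN9 (93.6 against 47.0) reached the filter of 62.2 only through the shBORIS arrays. Their place among the genes that rose thus depends on the group where they are high.

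The other CDK inhibitors were lower or not called after centring. Of 4 tested, 0 rose and 3 fell after centring, with a median of -0.20, and 1 fell with no filter or with centring on all probe sets. CDKN1C (p57), the closest relative of p27 in function, fell by 1.22, from 366 and 298 with shLUC to 185 and 197 with shBORIS, and by 0.74 as deposited (limma adjusted p = 3.94e-11). CDKN1A (p21) and CDKN2D (p19) fell by 0.16 and 0.23 after centring but were higher by 0.31 and 0.25 as deposited, calls that were lost without shBORIS replicate 2 and likewise when shLUC replicate 2 was left out. CDKN2A (p16 and p14ARF) read -0.17 after centring (limma adjusted p = 0.172) and was called higher as deposited (log2 0.31, limma adjusted p = 0.011). Its mean was 71.7 with shBORIS and 55.2 with shLUC, the latter under the filter of 62.2. CDKN1C is imprinted, and its array values do not separate alleles.

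Genes for turnover of G1 cyclins and p27 went both ways, with 7 of 15 higher and 2 lower after centring and a median of 0.13; 1 was lower without shBORIS replicate 2 or without shLUC replicate 2, and 11 were higher when centred on all probe sets. CUL1, the scaffold of the SCF ubiquitin ligase that destroys p27 and cyclin E, rose by 0.995, from 659 and 593 to 1685 and 1843. CUL4A rose by 0.72 and UBAC1, a subunit of a ligase for p27, by 0.36. FBXO4, an F-box protein reported to target cyclin D1, fell by 1.26, from 159 and 170 to 87.8 and 89.9. The F-box protein for p27, SKP2, was not called (0.05, limma adjusted p = 0.509).

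The CDK-activating kinase and CDC25 group had 5 of 8 higher and 1 lower after centring, with a median of 0.20, and 2 higher after quantile normalization or 3 with the stricter filter. The phosphatases CDC25C and CDC25B rose by 0.39 and 0.38, and CDC37, a chaperone partner for CDK4, by 0.29. CCNH, the cyclin of the activating kinase, fell by 0.48 after centring, and was level as deposited at 210 and 218 against 217.5 and 212. Of 21 other CDKs and cyclins tested, 7 rose and 5 fell, around 0.06 at the median. With no filter or centred on all probe sets 11 rose, and 4 after quantile normalization; 3 fell with probe set means or centred on all probe sets. The mitotic kinase CDK1 rose by 0.61 and CCNB1 by 0.34, while CDK14 and CDK3 fell by 1.16 and 0.39 after centring. As deposited CDK3 was not called (means of 271 with shBORIS and 254 with shLUC). CDK14 reached the filter only through the shLUC arrays (mean 47.85 with shBORIS against 86.64 with shLUC).

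**Figure D5:**
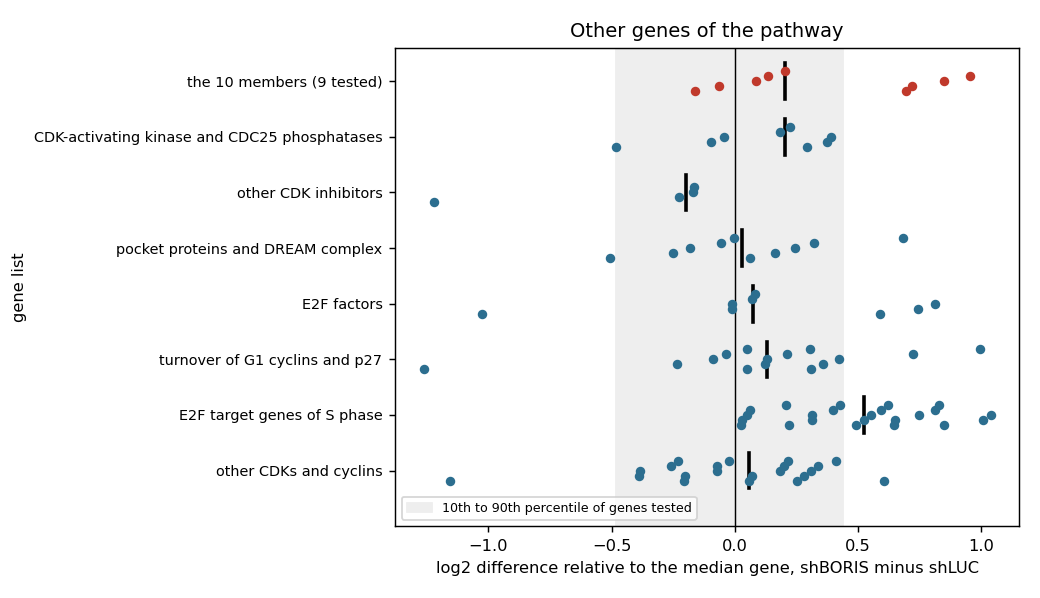
Log2 difference after centring of each tested gene in 7 lists and of the 9 members tested, with each list's median as a bar; the grey band runs from the 10th to the 90th percentile of all genes, -0.48 to 0.44. The E2F target genes of S phase have the highest median, 0.53, and the other CDK inhibitors the lowest, -0.20.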

How the data were processed

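The deposited table gives, per the labels, 1 intensity per probe set and array on a linear scale, with replicates not pooled. The submitters' processing notes name MAS5, R 3.1.3 and affy without roles, and the scaling of the arrays was not given in the sources used here. Spike-in RNA was added before 100 ng was labelled, per the labels' protocols.

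The 202 control probe sets were left out. Of 49293 others, 45278 had 1 symbol, 1333 had several and were not named, and 2682 had none here. Symbols were updated by Entrez identifier (45208 matched, GRCh38.p14 table). Each of 18244 genes was represented by its brightest probe set, and the 10946 genes whose mean reached the 40th percentile of genes (62.2) were tested.

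Values were log2(intensity + 16). limma 3.58.1 in R 4.3.3 was fitted with an intensity trend and the hairpin as the only term (2 residual degrees of freedom), as deposited and centred on each array's median of tested genes, for genes and, without a filter, for all probe sets. P-values were adjusted by Benjamini-Hochberg over each whole fit, with a threshold of 0.05. As deposited the prior had infinite degrees of freedom, so very small p-values there rest on the pooled spread. The fit was tested on simulated data.

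The members and the lists were chosen with earlier results of these data known. The rule named all members, up to 4 genes per list by smallest centred p, the 3 genes nearest to CCND1, and CTCFL. SKP2, the S-phase genes not called and PTPRC, CDH5 and DCN were named after their values were seen. The number of arrays limits precision, and p-values measure the spread between duplicates. Near-identical transcripts cannot be told apart by probes. Alternatives covered pseudocounts of 1 and 64, filters, probe set means, scaling, the prior, a replicate block and leaving out each array.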

Additional observations from a re-analysis of the deposited data

How the results depend on the processing

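The directions and calls of CCND1, CCNE1, CDK6 and CDKN1B held under all 13 alternatives on each scale, with centred differences of 0.80 to 1.10, 0.63 to 0.99, 0.63 to 0.84 and 0.61 to 0.87. Over the member genes and CTCFL, 231 of 256 values kept their side of the threshold, 10 lost a call, 13 gained one and 2 that had been called changed sign. Changes of sign in values not called at first were not counted apart. After quantile normalization CCND3 and RB1 read -0.09 and -0.01 (-0.0909 and -0.0137) in place of higher as deposited, and the brightest CCND2 probe set read 0.10 in place of lower after centring. None of these 3 was called. There, 1 member probe set was lower in place of 6, all genes split into 2940 higher and 3106 lower (as deposited 8455 and 508), and the pathway lists into 36 higher and 17 lower (as deposited 81 and 4). The cause was not tested.

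Centring on all probe sets gave 5012 genes higher and 1908 lower, and 8 pathway genes lower in place of 15. The 60th percentile filter, which tests fewer genes, gave 2202 genes higher after centring, and 273 genes and 2 pathway genes lower as deposited. With no filter 5053 genes were lower after centring. Probe set means gave 2 member genes lower after centring (CCND3 at -0.29 and RB1 at -0.36) and 2 pathway genes lower as deposited, and a pseudocount of 64 gave 1 member gene lower (RB1). Leaving out each array gave 319 (without shLUC replicate 1) to 489 genes lower as deposited, 0 to 1 member genes lower after centring and 0 to 1 member probe sets lower as deposited. Spike-in centring replaced the deposited scale only.

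The labels number the replicates in both groups. Deviations of same-numbered arrays correlated at 0.0979 over genes. With so few arrays, this value cannot show whether same-numbered arrays were handled together. With the replicate block 7628 genes were higher as deposited and 384 lower, and 0 member probe sets were lower as deposited in place of 1. Dim probe sets (CCND2, RB1) limit the precision.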
